A study of Mus musculus with 12 samples.

Results

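The 10 genes described are the D cyclins Ccnd1, Ccnd2 and Ccnd3, the E cyclins Ccne1 and Ccne2, and 5 inhibitors of cyclin-dependent kinases (CDKs): Cdkn1b, Cdkn1c, Cdkn2a, Cdkn2b and Cdkn2c. They were chosen by name as the cyclins and inhibitors of the G1 phase other than Cdkn1a, with no threshold on their values. Earlier results of these data were known when they were chosen. They are 10 of 19938 genes measured, with 11 of 35512 probe sets. Expression was measured on 12 Affymetrix arrays of NIH3T3 cells, a single immortalised line of mouse fibroblasts grown in DMEM with 10% fetal bovine serum. The study silenced UBF, encoded by Ubtf, the nucleolar factor through which RNA polymerase I transcribes ribosomal RNA genes. Every culture received the Dharmafect 2 reagent, and RNA was taken 48 h later. Mock cultures had the reagent with no siRNA, sirEGFP cultures an siRNA named for EGFP at 40 nM, and the other 2 groups 40 nM of sirUBF oligo #1 or oligo #2 (oligo 1 and oligo 2 below). Each of the 4 groups holds 3 arrays, called biological replicates in the design text. How the cultures were split is not stated, so p-values measure the spread between these arrays.

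D cyclins activate Cdk4 and Cdk6, and E cyclins activate Cdk2, and these kinases phosphorylate the retinoblastoma family of pocket proteins, which frees E2F factors to switch on genes of DNA replication. INK4 inhibitors (Cdkn2a, Cdkn2b, Cdkn2c and Cdkn2d) bind Cdk4 and Cdk6, while CIP/KIP inhibitors such as Cdkn1b and Cdkn1c bind cyclin-CDK complexes more widely. NIH3T3 cells are known to have lost the locus of Cdkn2a, which encodes p16Ink4a and p19Arf.

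Cdkn2c, the INK4 inhibitor p18Ink4c, was the member that differed most over the 4 groups. Its level was high on the Mock and oligo 2 arrays and low on the sirEGFP and oligo 1 arrays, so each siRNA against UBF gave a call against 1 control and none against the other. Against sirEGFP it rose 2.22-fold with oligo 2, and against Mock it fell by 41.0% with oligo 1. The other 9 members passed no test over all genes in the main fit, which had no replicate block. With the block, Cdkn2b passed between the siRNAs (limma adjusted p = 0.0455), and Ccnd1, Ccnd2, Ccne2 and Cdkn1b each passed with 1 or 3 arrays left out. Array quality weights called Ccnd1, Ccnd2, Ccne1, Ccne2, Cdkn1b and Cdkn2b in at least 1 comparison each, and up to 3814 of all genes. Among the 9 members, Cdkn2b was lowest with oligo 2 (log2 change -0.35 ± 0.11 (SE, n = 3 against 3), limma adjusted p = 0.141 against sirEGFP), and Ccne2 was lowest with oligo 1 (-0.56 ± 0.18, adjusted p = 0.156).

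Ubtf lay between 7.49 and 7.998 on the 6 arrays of the siRNAs against UBF and between 8.04 and 8.68 on the 6 control arrays, on the log2 scale. Against sirEGFP it did not pass with either siRNA (limma adjusted p = 0.107 with oligo 1 and 0.0771 with oligo 2). With the replicate number as a block, a pairing the labels do not state, Ubtf passed with both (adjusted p = 0.0172 with oligo 1 and 0.0115 with oligo 2). It passed against Mock, falling by 0.74 under oligo 1 (adjusted p = 0.0252; 0.0580 without the 3 arrays described next) and falling by 0.79 under oligo 2 (adjusted p = 0.0146). Leaving out single arrays ended these calls too, with any Mock array or oligo 1 array 2 or 3 for oligo 1 (adjusted p up to 0.131) and Mock 1, Mock 2 or oligo 2 array 3 for oligo 2 (up to 0.0827). Fibroblast markers fitted the label, with 10 of 10 above the median gene on all 12 arrays, as were Krt8 of 6 epithelial, Cd14 of 6 macrophage and leukocyte, Myod1 of 5 muscle and none of 4 endothelial markers. On the main axis of spread within groups, 3 arrays stood apart (sirEGFP array 1 at -23.5, oligo 1 arrays 1 and 2 at -26.8 and 28.5, the other 9 between -14.7 and 16.3). Where a call ended without these 3 arrays, the adjusted p without them stands beside it. Array medians lay between 5.38 and 5.54, and a low value cannot be told from background in these data.

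The 6 arrays of the siRNAs against UBF lay beyond all 6 control arrays for 423 genes (2.12% of 19938) and for none of the 10 members. Over all 4 groups, limma's F test called 1 of 10 members, Cdkn2c (adjusted p = 0.000413), against 6.17% of all genes. Cdkn2b (0.119), Cdkn1b (0.159) and Ccne2 (0.163) came next, and the remaining 6 members had adjusted p-values from 0.406 to 0.882. The plot of levels by array shows every member.

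**Figure D1:**
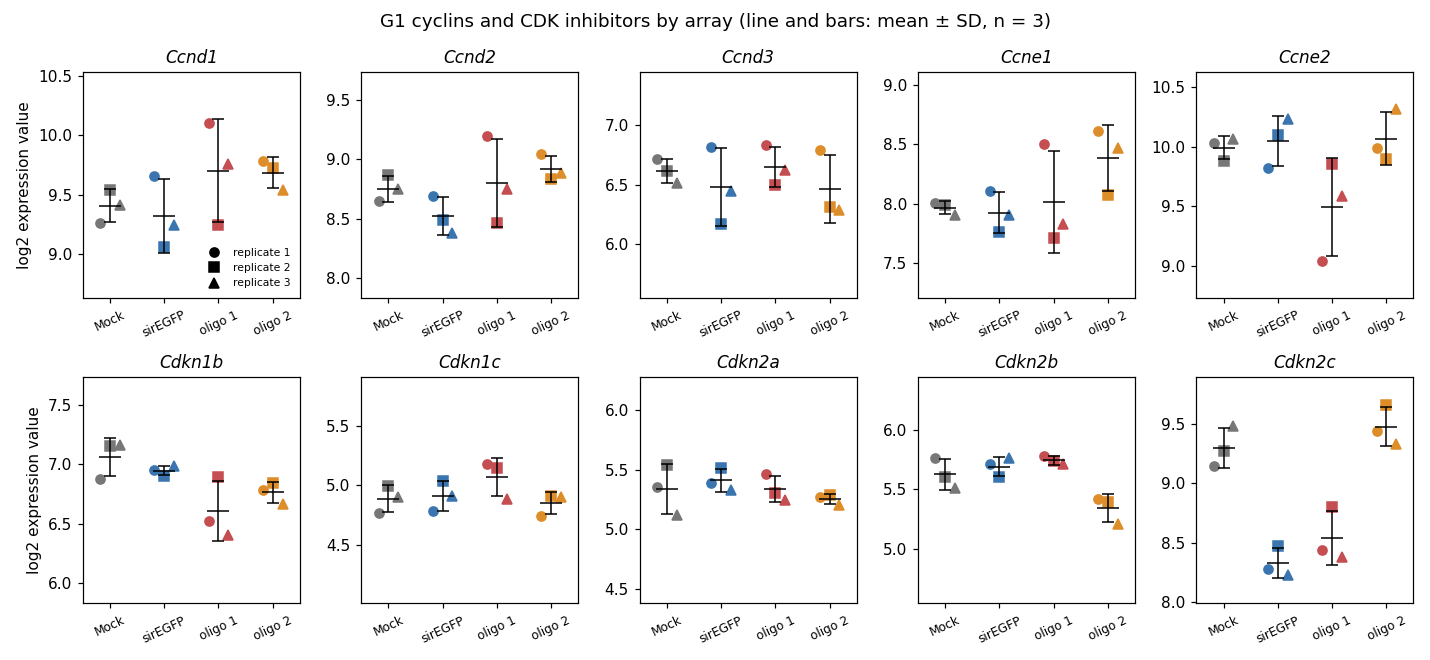
Log2 expression value of each of the 10 genes on each array (vertical axis, 1 panel a gene, all with the same span), by group (horizontal axis); symbols mark the replicate number, and the line and bars give the mean ± SD of 3 arrays. For Cdkn2c the Mock and oligo 2 arrays sit between 9.15 and 9.65 and the sirEGFP and oligo 1 arrays between 8.23 and 8.80.

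Because the results turn on Cdkn2c, the 250 bases before each of its 2 annotated starts are printed from RefSeq (GRCm38.p6), 5′ to 3′ on the minus strand, with each GC box (GGGCGG, searched on both strands) in capitals. Of the 10 members, 6 were found in the promoter table. Cdkn2c has a GC-rich start (77.2% G or C) at chr4:109666757-109667006 and another (42.8%) at chr4:109665373-109665622. The median over all starts was 52.4%.
Cdkn2c, first start: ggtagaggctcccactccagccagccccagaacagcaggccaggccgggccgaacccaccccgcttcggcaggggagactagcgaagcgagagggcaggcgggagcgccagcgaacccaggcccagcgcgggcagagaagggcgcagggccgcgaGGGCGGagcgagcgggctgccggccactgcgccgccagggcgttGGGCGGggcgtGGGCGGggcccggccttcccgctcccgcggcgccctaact
Cdkn2c, second start: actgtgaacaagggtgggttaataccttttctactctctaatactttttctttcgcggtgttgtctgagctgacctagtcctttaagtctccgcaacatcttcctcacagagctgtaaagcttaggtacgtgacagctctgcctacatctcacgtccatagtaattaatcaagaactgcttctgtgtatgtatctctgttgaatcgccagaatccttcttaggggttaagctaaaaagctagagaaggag
Cdkn2b is printed beside it (53.6% G or C, minus strand, chr4:89311033-89311282), since its level was lowest with the siRNA that had the highest Cdkn2c.
Cdkn2b: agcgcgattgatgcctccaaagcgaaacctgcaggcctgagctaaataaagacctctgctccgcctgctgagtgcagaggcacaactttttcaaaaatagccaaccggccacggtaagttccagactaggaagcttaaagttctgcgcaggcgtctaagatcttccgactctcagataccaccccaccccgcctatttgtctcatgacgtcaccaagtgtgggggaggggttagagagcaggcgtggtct
The first start of Cdkn2c holds 3 GC boxes, from 95 to 35 bases before the start, and the other 2 windows hold none. A GC box occurred in 32.7% of 32851 windows of this length. None of the 3 windows held CCAAT (in 33.8% of all windows) or 1 of the E2F letters searched, TTTCCCGC, TTTGGCGC, TTTCGCGC and TTTGCCGC (1.86%), on either strand. Which start the probe set reports was not tested, and a match describes letters, not a bound site.

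Cdkn2c (probe set 10515090) stood at 9.15, 9.27 and 9.48 in Mock, 8.28, 8.47 and 8.23 in sirEGFP, 8.43, 8.80 and 8.38 under oligo 1, and 9.44, 9.65 and 9.33 under oligo 2. The lowest Mock or oligo 2 array lay above the highest sirEGFP or oligo 1 array, whereas Mock overlapped with oligo 2 and sirEGFP with oligo 1. The means were 9.30 ± 0.17 (SD, n = 3) for Mock, 8.33 ± 0.13 for sirEGFP, 8.54 ± 0.23 for oligo 1 and 9.47 ± 0.16 for oligo 2. In order of level the groups ran oligo 2, Mock, oligo 1 and sirEGFP, and the step between Mock and oligo 1 was the one wider than the spread.

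Against sirEGFP, Cdkn2c rose by 1.15 ± 0.14 (SE) on the log2 scale with oligo 2 (95% interval 0.85 to 1.45, limma adjusted p = 0.000464). It was the 1 member of 10 called in that comparison, which called 451 genes, or 2.26% (773 genes with the replicate number as a block). With oligo 1 the Cdkn2c change was 0.21 (-0.09 to 0.51, adjusted p = 0.614), and none of 10 members was called, against 493 genes or 2.47%. The mean of both siRNAs lay 0.68 above sirEGFP (0.42 to 0.94, adjusted p = 0.0110), with 1 of 10 members called against 1.93% of genes. This mean joins groups that differed from each other, and its call was lost without sirEGFP array 3 (0.63, adjusted p = 0.0847) and with both controls averaged (0.19, adjusted p = 0.373).

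Against Mock, Cdkn2c fell by 0.76 with oligo 1 (-1.06 to -0.46, limma adjusted p = 0.00885), the 1 member called against 2.75% of genes. That call was lost without oligo 1 array 3 (-0.68, adjusted p = 0.0581). With oligo 2 the difference from Mock was 0.18 (-0.13 to 0.48, adjusted p = 0.673), with none of 10 members called against 4.25% of genes. Each siRNA is set against the same sirEGFP and the same Mock arrays, so these comparisons share their controls.

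The controls themselves differed in Cdkn2c. The log2 change from Mock to sirEGFP was -0.97 (95% interval -1.27 to -0.67, a ratio of 0.510), with all 3 sirEGFP arrays below all 3 Mock arrays. This was the smallest p of all 19938 genes in that comparison (unadjusted p = 6.17e-06), yet limma's adjusted p was 0.123, and no gene was called (0%). At an unadjusted p under 0.05, the comparison of controls had 1247 genes (6.25%) and 1 member, Cdkn2c. The limma adjusted p lay between 0.0172 and 0.9995 over 21 alternatives. It passed with the replicate block (0.0172), with array quality weights (0.0377) and without oligo 1 array 2 (0.0359). That array is outside the contrast and enters through the shared spread.

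The siRNAs differed from each other in Cdkn2c by 0.94 (0.64 to 1.24, 1.92-fold), higher with oligo 2 on all 3 arrays (limma adjusted p = 0.00182). It was the 1 of 10 members called between the siRNAs, against 3.67% of genes. The call held in all 21 alternatives tried for it, with a change of 0.85 to 1.10, and without the 3 arrays that stood apart the difference was 1.10 (adjusted p = 0.0185). Ubtf itself differed between the siRNAs by -0.05, with the arrays overlapping.

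**Figure D2:**
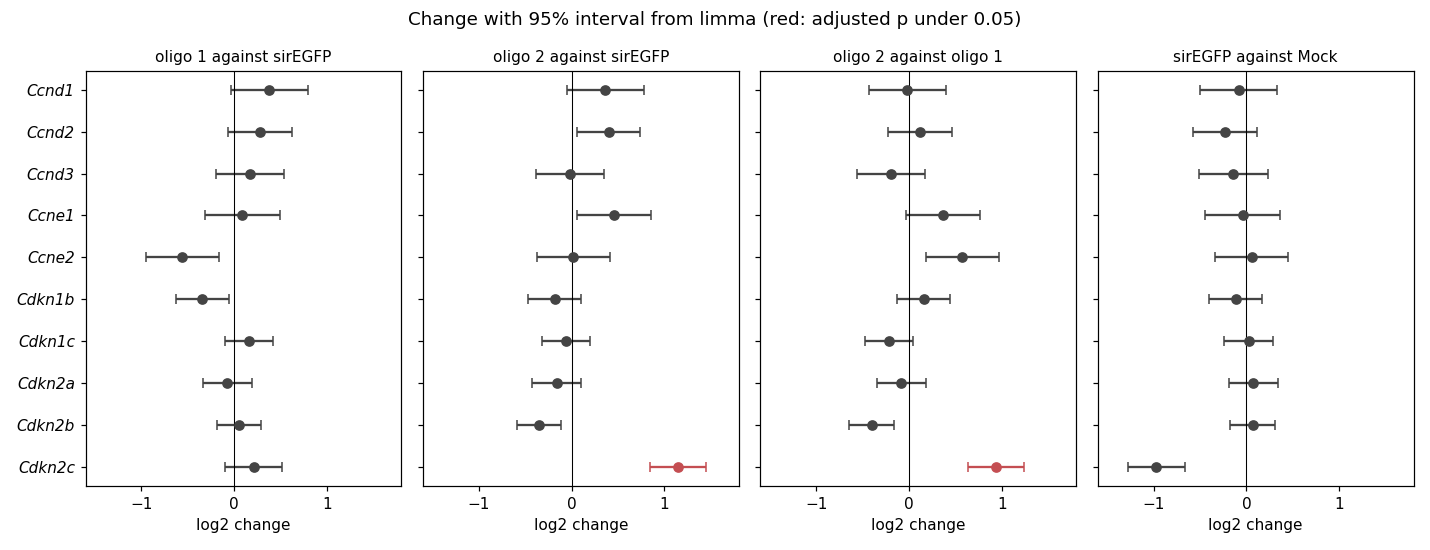
Log2 change of each of the 10 genes (horizontal axis) in 4 comparisons, as limma estimates with 95% intervals; red marks an adjusted p under 0.05. Cdkn2c alone is red, at 1.15 for oligo 2 against sirEGFP and 0.94 for oligo 2 against oligo 1, and it lies at -0.97, not called, for sirEGFP against Mock.

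Cdkn2b encodes p15Ink4b, the INK4 inhibitor known for its induction by TGF-beta. Its level was 5.76, 5.60 and 5.51 in Mock, 5.71, 5.60 and 5.76 in sirEGFP, 5.78, 5.74 and 5.71 under oligo 1, and 5.42, 5.39 and 5.21 under oligo 2. The 3 oligo 2 arrays lay below the other 9 arrays, which overlapped with one another. Oligo 2 differed from oligo 1 by -0.40 (-0.64 to -0.16, limma adjusted p = 0.0649). With the replicate number as a block, the same difference passed (adjusted p = 0.0455), and the genes called between the siRNAs went from 732 to 1094. The labels state no pairing, and deviations of same-numbered arrays in these groups correlated at r of 0.115 to 0.388. Against Mock the oligo 2 value was -0.28 (adjusted p = 0.215), and oligo 1 lay 0.05 from sirEGFP (adjusted p = 0.918). Without the 3 arrays that stood apart, the difference between the siRNAs was -0.37 (adjusted p = 0.466).

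Cdkn2a has 1 probe set for both of its transcripts, and its values lay between 5.12 and 5.54 in Mock and between 5.20 and 5.52 on the other arrays. All 3 oligo 2 arrays, at 5.20 to 5.29, were below the sirEGFP arrays, at 5.33 to 5.52, but not below Mock. The changes against sirEGFP were -0.07 with oligo 1 (limma adjusted p = 0.886) and -0.16 with oligo 2 (0.685), with an interval of -0.42 to 0.11 for the latter. As this locus is known to be lost in NIH3T3 cells, these values may carry no RNA, which was not tested. The oligo 2 values of Cdkn2b, 5.21 to 5.42, lay within the Mock span of Cdkn2a.

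Cdkn1b, p27Kip1, restrains Cdk2 and is held low by proteolysis in growing cells. Its probe set with the higher mean (10542310) gave 6.88, 7.15 and 7.16 in Mock, 6.95, 6.91 and 6.99 in sirEGFP, 6.53, 6.89 and 6.40 under oligo 1, and 6.78, 6.84 and 6.67 under oligo 2. All 6 arrays of the siRNAs against UBF lay below the 3 sirEGFP arrays, but oligo 1 array 2 overlapped with Mock array 1. Against sirEGFP the change was -0.34 with oligo 1 (-0.63 to -0.05, limma adjusted p = 0.261) and -0.18 with oligo 2 (-0.47 to 0.10, adjusted p = 0.660). Against Mock it was -0.46 with oligo 1 (adjusted p = 0.0985) and -0.30 with oligo 2 (adjusted p = 0.298).

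Leaving out oligo 1 array 2, 1 of the arrays that stood apart, took Cdkn1b past the threshold with oligo 1 against sirEGFP (-0.48, limma adjusted p = 0.0497) and against Mock (-0.60, adjusted p = 0.0194). Without all 3 of those arrays it did not pass (-0.54, adjusted p = 0.173 against sirEGFP). The second Cdkn1b probe set (10542317) gave 6.28, 6.14 and 6.30 for Mock, 5.92, 6.20 and 5.83 for sirEGFP, 5.04, 6.01 and 5.63 for oligo 1, and 6.08, 5.90 and 5.68 for oligo 2. It was lower than Mock on all 6 arrays of the siRNAs against UBF, with changes of -0.68 for oligo 1 and -0.36 for oligo 2 (limma adjusted p = 0.224 and 0.575 over all probe sets). Both probe sets thus had the same order of group means, from Mock down to oligo 1.

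Cdkn1c, p57Kip2, an imprinted CIP/KIP inhibitor, showed little spread between groups. The Mock mean was 4.89 ± 0.12 (SD, n = 3), the sirEGFP mean 4.91 ± 0.13, the oligo 1 mean 5.07 ± 0.16 and the oligo 2 mean 4.85 ± 0.09. The groups overlapped in every comparison, and the difference between the siRNAs was -0.22 (-0.48 to 0.04, limma adjusted p = 0.467).

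Among the D cyclins, Ccnd1, the growth-factor-responsive partner of Cdk4, stood at 9.27, 9.55 and 9.41 in Mock, 9.66, 9.06 and 9.24 in sirEGFP, 10.11, 9.24 and 9.76 under oligo 1, and 9.79, 9.73 and 9.54 under oligo 2. The highest array was oligo 1 array 1 and the lowest sirEGFP array 2, and the groups overlapped. Ccnd1 was 0.38 higher with oligo 1 than with sirEGFP (-0.04 to 0.80, limma adjusted p = 0.431) and 0.36 higher with oligo 2 (-0.05 to 0.78, adjusted p = 0.484). The siRNAs differed in Ccnd1 by -0.02, with an interval of -0.43 to 0.40. Without the 3 arrays that stood apart, Ccnd1 was 0.53 higher with oligo 2 than with sirEGFP and passed (adjusted p = 0.0407), and it stood 0.61 higher with oligo 1 (adjusted p = 0.132).

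Ccnd2, a D cyclin used in many growing cells, gave 8.65, 8.86 and 8.74 for Mock, 8.69, 8.49 and 8.37 for sirEGFP, 9.19, 8.46 and 8.75 for oligo 1, and 9.04, 8.83 and 8.88 for oligo 2. The 3 oligo 2 arrays lay above the 3 sirEGFP arrays and overlapped with Mock. The change was 0.40 with oligo 2 against sirEGFP (0.05 to 0.74, limma adjusted p = 0.288), 0.28 with oligo 1 (-0.06 to 0.62, adjusted p = 0.508) and 0.17 with oligo 2 against Mock (adjusted p = 0.758). Without the 3 arrays that stood apart, oligo 2 against sirEGFP passed for Ccnd2 (0.48, adjusted p = 0.0479).

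Ccnd3, the remaining D cyclin, ranged from 6.16 on a sirEGFP array to 6.83 on an oligo 1 array, and the sirEGFP arrays alone spanned 6.16 to 6.82. Its changes against sirEGFP were 0.17 with oligo 1 (-0.19 to 0.54) and -0.02 with oligo 2 (-0.38 to 0.35). Neither passed, and every pair of groups overlapped.

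Ccne1, the cyclin that activates Cdk2 at the end of G1, stood at 8.01, 7.99 and 7.90 in Mock, 8.11, 7.77 and 7.91 in sirEGFP, 8.50, 7.71 and 7.83 under oligo 1, and 8.61, 8.07 and 8.47 under oligo 2. The oligo 2 arrays were above all Mock arrays, and oligo 2 array 2 lay below sirEGFP array 1. The change with oligo 2 was 0.46 against sirEGFP (0.05 to 0.86, limma adjusted p = 0.301) and 0.41 against Mock (0.01 to 0.82, adjusted p = 0.309). With oligo 1 it was 0.09 against sirEGFP (-0.31 to 0.49). The difference between the siRNAs was 0.37 (-0.03 to 0.77, adjusted p = 0.409). With array quality weights, Ccne1 passed with oligo 2 against sirEGFP (0.55, limma adjusted p = 0.0442) and between the siRNAs (0.55, adjusted p = 0.00580).

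Ccne2, the other E cyclin and an E2F-responsive gene, gave 10.03, 9.88 and 10.06 for Mock, 9.82, 10.10 and 10.23 for sirEGFP, 9.04, 9.85 and 9.58 for oligo 1, and 9.99, 9.89 and 10.32 for oligo 2. All 3 oligo 1 arrays lay below all Mock and all oligo 2 arrays, and oligo 1 array 2 overlapped with sirEGFP array 1. Oligo 1 differed from sirEGFP by -0.56 (-0.95 to -0.16), from Mock by -0.50 (-0.89 to -0.11, limma adjusted p = 0.219) and from oligo 2, which was 0.57 higher (0.18 to 0.97, adjusted p = 0.116). Leaving out oligo 1 array 2 took Ccne2 past the threshold against sirEGFP (-0.74, adjusted p = 0.0320) and between the siRNAs (0.75, adjusted p = 0.0282). Without all 3 arrays that stood apart the changes were -0.58 (adjusted p = 0.182) and 0.48 (adjusted p = 0.327).

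At an unadjusted p under 0.05, limma had 2 of 10 members with oligo 1 against sirEGFP, Ccne2 and Cdkn1b, against 13.4% of all genes. With oligo 2 against sirEGFP there were 4 (Ccnd2, Ccne1, Cdkn2b and Cdkn2c, against 12.9%), and 4 in the mean of both siRNAs (Ccnd1, Ccnd2, Cdkn1b and Cdkn2c, against 13.2%). Against Mock there were 3 with oligo 1 (Ccne2, Cdkn1b and Cdkn2c, against 13.2%) and 3 with oligo 2 (Ccne1, Cdkn1b and Cdkn2b, against 15.2%). Between the siRNAs there were 3, Ccne2, Cdkn2b and Cdkn2c, against 14.4%. The median change of the 10 members against sirEGFP was 0.12 with oligo 1 and 0.00091 with oligo 2, beside 0.022 and -0.0077 for all genes. Between the siRNAs the members' median was 0.049 and that of all genes -0.030.

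Within groups the cyclins moved with the main axis of spread. Over the 12 arrays, the deviation from the group mean correlated with the axis score at r = -0.936 for Ccnd2, -0.890 for Ccnd1, -0.826 for Ccne1 and -0.777 for Ccnd3, and at 0.837 for Ccne2. The inhibitors stood closer to 0, from -0.372 for Cdkn2a to 0.532 for Cdkn2c. The axis was drawn from all genes of the same arrays, so these values describe the spread. The share of all genes with correlations as strong was not computed, so they are not shown to be particular to the cyclins. The part of this axis in the group differences was not tested.

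**Figure D3:**
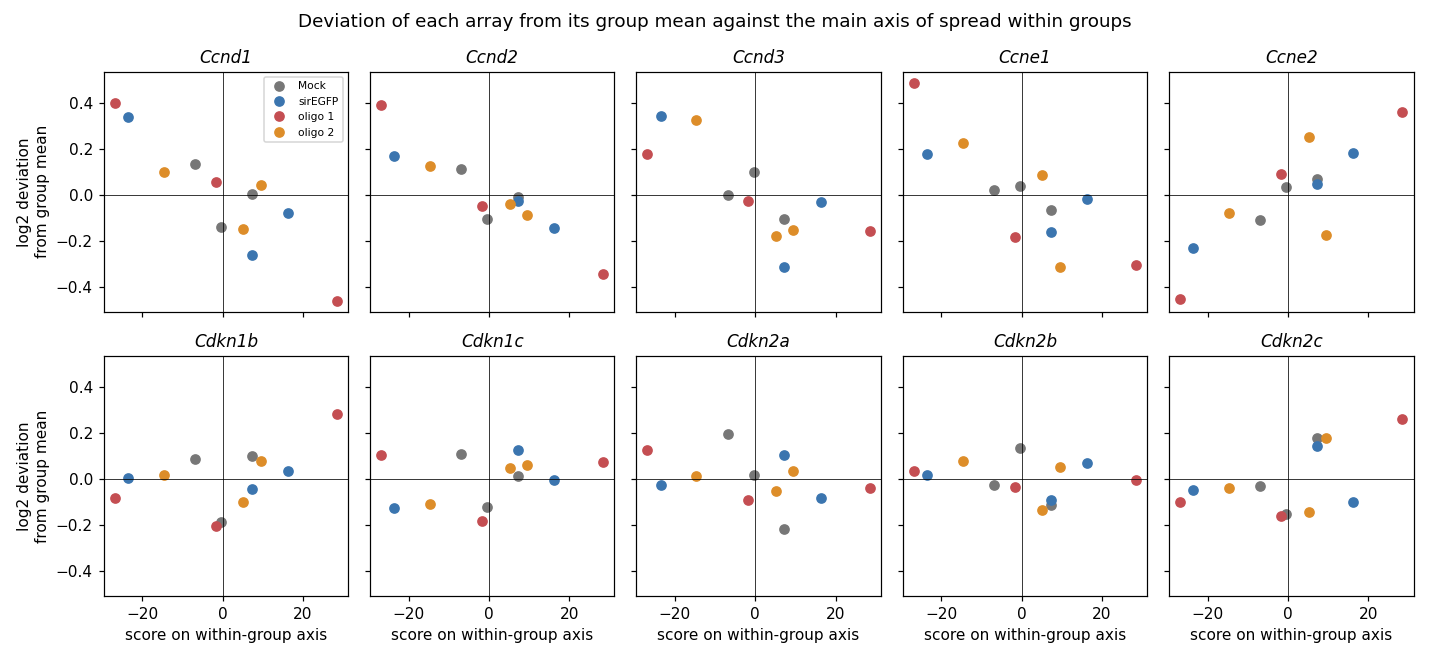
Deviation of each array from its group mean on the log2 scale (vertical axis) against the array's score on the main axis of within-group spread (horizontal axis), 1 panel a gene, 12 arrays coloured by group. The D cyclins and Ccne1 slope down and Ccne2 slopes up, with r between -0.936 and 0.837, while the inhibitors show weaker slopes.

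Other genes of the pathway were taken from lists, and Cdkn1a is not analysed here. Of all genes, 2.47% were called with oligo 1 against sirEGFP, 2.26% with oligo 2 and 3.67% between the siRNAs, in either direction. Against Mock the shares were 2.75% with oligo 1 and 4.25% with oligo 2. These shares stand beside every list below, and 1 call in a short list cannot be told from them. No G1 kinase or activator of 8 was called against sirEGFP with either siRNA. Cdk6, a partner of the D cyclins and the kinase that Cdkn2c binds, was 0.59 higher with oligo 2 than with oligo 1 (limma adjusted p = 0.0409), the 1 of 8 called there and 1 of 2 with the replicate block. Its changes against sirEGFP were -0.34 with oligo 1 (adjusted p = 0.339) and 0.25 with oligo 2 (adjusted p = 0.546). The call was lost without any 1 of 7 arrays (Mock 1, sirEGFP 3, oligo 1 arrays 1 and 2 and each oligo 2 array, adjusted p up to 0.139) and without the 3 that stood apart (0.568).

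Cdkn2d, the INK4 inhibitor p19Ink4d, fell by 0.56 with oligo 1 against sirEGFP (limma adjusted p = 0.0272). It stood at 6.89, 7.05 and 6.80 in Mock, 6.40, 6.56 and 6.41 in sirEGFP, 6.03, 5.80 and 5.88 under oligo 1, and 6.74, 6.70 and 6.44 under oligo 2. The oligo 1 arrays were below all others, and Mock lay above all 9 siRNA arrays. The oligo 1 call was lost without any 1 of sirEGFP 2, sirEGFP 3, oligo 1 array 2 and oligo 1 array 3 (adjusted p up to 0.137) and without the 3 arrays that stood apart (0.137). Between the siRNAs, Cdkn2d was 0.73 higher with oligo 2 (adjusted p = 0.00386; 0.0615 without the 3 arrays that stood apart). Against Mock, Cdkn2d fell by 1.01 with oligo 1 (adjusted p = 0.000724), a call whose hold under the other settings was not checked for this gene. Cdkn3, a CDK-associated phosphatase and the other of 2 further inhibitors measured, fell by 0.51 with oligo 2 against Mock (limma adjusted p = 0.0291), a call lost without any 1 Mock or oligo 2 array (adjusted p up to 0.116). Its change with oligo 2 against sirEGFP was -0.31 (adjusted p = 0.261).

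Rbl1, the pocket protein p107, fell by 0.81 with oligo 1 against sirEGFP (limma adjusted p = 0.00176), 1 of 3 pocket proteins. Its oligo 1 arrays, at 7.85, 7.93 and 7.85, lay below the 9 others, which spanned 8.44 to 8.81. The change with oligo 2 was -0.16, and the siRNAs differed by 0.65 (adjusted p = 0.00392; 0.0613 without the 3 arrays that stood apart). The oligo 1 call held in all 22 alternatives tried for it. In the mean of both siRNAs Rbl1 fell by 0.48 (adjusted p = 0.0187), which did not hold on leaving out sirEGFP 2 or sirEGFP 3 (adjusted p up to 0.153).

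Of 10 E2F and DP factors, 1 fell with oligo 1 against sirEGFP and none was called with oligo 2 against sirEGFP. E2f8, an atypical E2F that represses, fell by 0.68 with oligo 1 (limma adjusted p = 0.0392) and was 0.74 higher with oligo 2 than with oligo 1 (adjusted p = 0.0185). The first call was lost without any 1 of 10 arrays, all but sirEGFP 3 and oligo 2 array 2 (adjusted p up to 0.0990), and without the 3 that stood apart (0.378). The second was lost without oligo 1 array 2, oligo 2 array 1 or oligo 2 array 3 (adjusted p up to 0.0975) and without those 3 arrays (0.115).

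The list of genes for the turnover of G1 cyclins and inhibitors had 14 measured members, of which 2 fell with oligo 1 against sirEGFP and none was called with oligo 2 against sirEGFP. Cks1b, the cofactor through which SCF-Skp2 recognises p27Kip1, fell by 0.80 with oligo 1 (limma adjusted p = 0.00273), with arrays at 10.32, 10.73 and 10.49 against 11.23 to 11.39 on the other 9. This call held in all 22 alternatives tried for it, and the siRNAs differed in Cks1b by 0.75 (adjusted p = 0.00226). Usp28, a deubiquitinase that opposes Fbxw7, fell by 0.52 with oligo 1 (adjusted p = 0.0267). That call was lost without sirEGFP 2, sirEGFP 3, oligo 1 array 1 or oligo 1 array 3 (adjusted p up to 0.106) and without the 3 arrays that stood apart (0.279).

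E2F target genes showed the widest gap between the siRNAs among the lists. Of 14 measured, 5 fell with oligo 1 against sirEGFP and none was called with oligo 2 against sirEGFP, with medians of -0.54 and 0.088. Against Mock, 2 of 14 fell with oligo 1, where all 14 had a lower mean, and none was called with oligo 2. The medians against Mock were -0.46 and 0.16. Between the siRNAs 7 were higher with oligo 2 and none lower, with a median of 0.63 beside -0.030 for all genes. Of all 19938 genes, 285 fell with oligo 1 against sirEGFP and 459 were higher with oligo 2 than with oligo 1. Mcm4 and Mcm6, subunits of the replicative helicase, fell by 0.65 each with oligo 1 (limma adjusted p = 0.00767 and 0.0105), and Cdc6, which loads that helicase, fell by 0.68 (adjusted p = 0.0228). Rrm2, a subunit of ribonucleotide reductase, was 0.73 higher with oligo 2 than with oligo 1 (adjusted p = 0.00918), at -0.36 and 0.36 against sirEGFP, neither called.

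These counts moved with single arrays. With oligo 1 against sirEGFP, the 5 E2F targets became 1 without sirEGFP 2, 2 without sirEGFP 3, 3 without oligo 1 array 1 or array 3 and none without the 3 arrays that stood apart (median -0.31) or with only these groups in the fit. Between the siRNAs, the 7 became 1 without those 3 arrays, while the median was 0.62, and with oligo 2 against sirEGFP 2 then rose. The Mcm6 call with oligo 1 was lost without sirEGFP 2 (adjusted p = 0.0693), and that of Cdc6 without any sirEGFP array or oligo 1 array 1 or 3 (adjusted p up to 0.0912). Without the 3 arrays that stood apart, the oligo 1 calls had adjusted p-values of 0.179 for Mcm4, 0.0934 for Mcm6 and 0.201 for Cdc6. Between the siRNAs they were then 0.102 for Mcm4, 0.0964 for Mcm6, 0.0647 for Cdc6 and 0.143 for Rrm2. E2F letters stood in the 250 bases before a start of Mcm6 (3 matches, 2 of them overlapping on opposite strands), Rbl1 and Cdc6 (1 each). Among the members, Cdkn2a had 1 match. None stood in the windows found for Cdk6, Cdkn2d, Cks1b, E2f8, Foxo3, Rrm2 and Usp28, and no window was found for Mcm4. Such letters occurred in 1.86% of all windows.

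Of 13 upstream transcription factors, none was called with oligo 1 against sirEGFP, 1 rose with oligo 2 against sirEGFP (2 with the replicate block) and none differed between the siRNAs (1 with the block, Tcf4, 0.49 higher with oligo 2, adjusted p = 0.0413). Tcf4, the helix-loop-helix factor also called E2-2, rose by 0.59 with oligo 2 (limma adjusted p = 0.0369), a call lost without any 1 of 8 arrays (Mock 1 and 3, sirEGFP 2 and 3, oligo 1 array 3 and each oligo 2 array, adjusted p up to 0.175). Foxo3, a forkhead factor known to activate Cdkn1b, rose by 0.43 in the mean of both siRNAs (adjusted p = 0.0397). Its Mock arrays lay between 6.36 and 6.42, sirEGFP between 6.49 and 6.72, oligo 1 between 6.95 and 7.20 and oligo 2 between 6.93 and 7.11, so that the siRNAs against UBF were above both controls. Foxo3 lost its call without any 1 of 10 arrays, all but sirEGFP 1 and oligo 1 array 2 (adjusted p up to 0.265), under both rescalings of the arrays and without the 3 that stood apart (0.0521). Against Mock, Foxo3 was the 1 of 13 called with each siRNA, and it rose by 0.69 with oligo 1 (limma adjusted p = 0.00426; 0.0640 without the 3 arrays that stood apart) and by 0.65 with oligo 2 (adjusted p = 0.00528). Against sirEGFP its changes were 0.45 with oligo 1 (adjusted p = 0.0538) and 0.41 with oligo 2 (0.0844), and sirEGFP lay 0.24 from Mock (0.802).

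**Figure D4:**
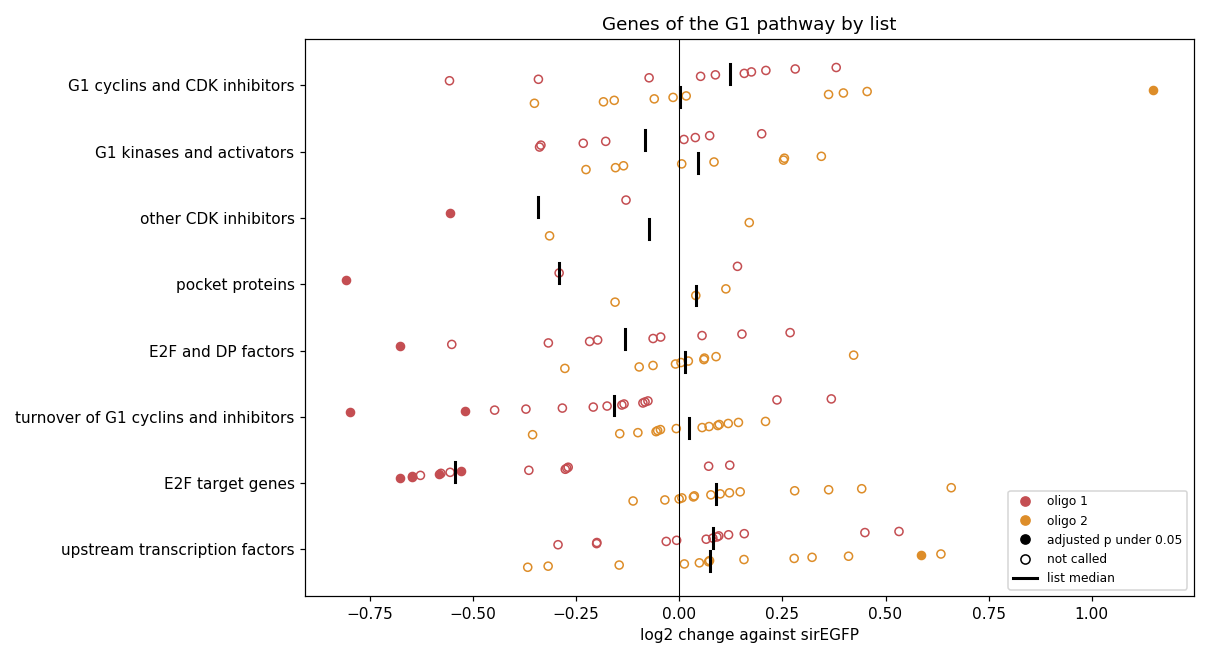
Log2 change against sirEGFP (horizontal axis) of every measured gene in 8 lists (rows), with oligo 1 in red and oligo 2 in orange; filled points have an adjusted p under 0.05 and the bar is the list median. The oligo 1 points of the E2F targets lie mostly left of 0 (median -0.54, 5 filled), those of oligo 2 around 0.088, and the filled orange point among the G1 cyclins and CDK inhibitors is Cdkn2c at 1.15.

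Markers also differed between the siRNAs. The fibroblast marker Pdgfrb was 1.33 higher (limma adjusted p = 0.0418) with oligo 2 than with oligo 1, Thy1 differed by -0.67 (adjusted p = 0.0305), and the other 8 of 10 fibroblast markers did not pass. Of other lists, Csf1r differed by -0.80 (adjusted p = 0.00807, 1 of 6 macrophage and leukocyte markers) and Cdh5 by 0.96 (adjusted p = 0.0176, 1 of 4 endothelial markers). The Pdgfrb call was lost without any 1 of 9 arrays, all but sirEGFP 1, sirEGFP 3 and oligo 1 array 1 (adjusted p up to 0.172). Thy1 lost its call without oligo 1 array 1 or 3 or oligo 2 array 2 or 3 (up to 0.151), and Cdh5 without oligo 1 array 2 or 3 or oligo 2 array 1 or 3 (up to 0.0913). Without the 3 arrays that stood apart, Thy1 (adjusted p = 0.272) and Csf1r (0.209) did not pass. The mean level of the endothelial list was 4.36 to 4.66 with oligo 1 and 4.76 to 4.90 with oligo 2, and that of the macrophage and leukocyte list 4.89 to 4.996 and 4.75 to 5.05. Their part in the differences of Cdkn2c and the E2F targets was not tested.

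Over the 12 arrays, the genes whose pattern was most like that of Cdkn2c, by Pearson correlation, were Tnfaip6 (r = 0.888), Spry3 (0.881), Pxk (0.875), Ebf3 (0.855) and Olfr891 (0.843). Tnfaip6, a hyaluronan-binding protein, had a Mock mean of 7.79, a sirEGFP mean of 7.02, an oligo 1 mean of 7.06 and an oligo 2 mean of 8.16, the same order of high and low groups. For Cdkn2b they were Gfi1 (0.921), Parl (0.920), St3gal5 (0.905), Npr1 (0.894) and Tcn2 (0.886). St3gal5, the GM3 synthase, had means of 7.71, 7.68 and 7.78 in Mock, sirEGFP and oligo 1 and 7.03 with oligo 2. Group means were low for Gfi1 (5.14 to 5.36), Npr1 (4.78 to 5.16), Tcn2 (4.77 to 4.96) and Olfr891 (2.88 to 3.26). Such low values cannot be told from background. The arrays share their groups, so these correlations are descriptions.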

How the data were processed

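RNA of 12 NIH3T3 cultures (4 groups of 3) was measured on Affymetrix arrays; 100 ng of total RNA gave 2.5 ug of labelled cDNA for each, per the labels' protocols. The authors deposited log2 values for each probe set on each array. That scale was read from the numbers; how probes were summarised and normalized is not given in the sources used, though limma is named, without a version, in the submitters' processing notes. Nothing in the values tells signal from background, and precision is limited by the number of arrays.

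Of 35512 probe sets, 21789 carried 1 gene symbol in the platform annotation, 1621 several and 12102 none. Entrez identifiers matched RefSeq (GRCm38.p6) symbols for 21698, and the other 91 kept theirs. Where a gene had several probe sets (999 genes), that of highest mean was used, which left 19938 genes. All 10 members lay outside the dimmest 25% of genes.

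The fit used limma 3.58.1 under R 4.3.3 (lmFit, contrasts.fit and eBayes, two-sided), with 1 coefficient a group, no block and 8 residual degrees of freedom. Genes were called at a Benjamini-Hochberg adjusted p, taken over all genes, under 0.05. The fit was tested on simulated data. The members, lists, tests and 21 other settings (rescaling, filters, probe sets, block, weights, controls, each array left out) were chosen with earlier results of these data known, and leaving out the 3 arrays that stood apart was added after their values were seen. Named were all members and Ubtf, up to 4 called genes a list by smallest adjusted p, and the 5 genes most correlated with each of the 2 members of smallest F test p. Same-numbered arrays deviated together in every pair (r over 0.1) for oligo 2 with sirEGFP (0.182 to 0.548) and with oligo 1 (0.115 to 0.388). Other groups did not meet this. The labels state no pairing, and whether the numbers pair the samples is not settled. Promoter windows of 250 bases came from RefSeq, GRCm38.p6.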

Additional observations from a re-analysis of the deposited data

Results flagged for a closer look

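Several genes differed between the siRNAs against UBF by limma's test of the difference itself, oligo 2 against oligo 1, on the log2 scale. Cdkn2c stood 0.939 higher with oligo 2. In the pathway lists the difference was 0.591 for Cdk6, 0.726 for Cdkn2d, 0.653 for Rbl1, 0.737 for E2f8, 0.745 for Cks1b, 0.724 for Mcm4, 0.654 for Mcm6, 0.776 for Cdc6 and 0.727 for Rrm2. Among markers it was 1.33 for Pdgfrb, -0.667 for Thy1, -0.795 for Csf1r and 0.963 for Cdh5. For Cdkn2c the oligo 2 arrays overlapped with Mock and the oligo 1 arrays with sirEGFP. For Rbl1, Cks1b, Mcm4, Mcm6 and Cdc6 the oligo 1 arrays were the low ones. The groups hold 3 arrays each, so no single array was tested as an outlier.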

How the results depend on the processing

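The rise of Cdkn2c with oligo 2 against sirEGFP was called in all 22 alternatives run (0.66 to 1.22) and its difference between the siRNAs in all 21. With the mean of Mock and sirEGFP as the control, Cdkn2c with oligo 1 went from 0.21 to -0.28 (adjusted p = 0.303); a sign change counted as reversed where 1 of the values had an unadjusted p under 0.05. No setting called a member with oligo 2 against Mock. Array quality weights called 3 members with oligo 1 against sirEGFP, 2 with oligo 2, 4 in the mean and 3 with oligo 1 against Mock. They called 1 between the controls, 5 between the siRNAs and 6 in the F test. Of all 19938 genes, they called 3814, 1180, 1949, 2695, 2 and 3164 in the first 6 of these. No count over all genes is given for the weighted F test, so its 6 members have no share to stand beside. The oligo 1 values then rest mostly on array 3 (weight 8.92 against 0.442 and 0.416). The replicate block called 1 member between the controls and 2 between the siRNAs, beside 3 and 1094 of all 19938 genes. It also called 2 upstream transcription factors with oligo 1 against sirEGFP, where none was called without it. The mean of both controls left 0 members in the mean comparison, and leaving out the 3 arrays that stood apart gave 3 with oligo 2 and 2 in the mean against sirEGFP. Leaving out 1 array in turn gave 0 to 2 members with oligo 1 against sirEGFP, 0 to 1 in the mean, 0 to 2 with oligo 1 against Mock, 0 to 1 between the controls, 1 to 2 between the siRNAs and 1 to 3 in the F test; counts above that of all arrays came without oligo 1 array 2.

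Genes called over the whole table moved more. For oligo 1 against sirEGFP (493), oligo 2 against sirEGFP (451) and the mean (385) the counts were 197, 201 and 123 with all probe sets adjusted together, 878, 773 and 789 with the replicate block, 3814, 1180 and 1949 with weights, 753, 979 and 982 against both controls, and 255, 1049 and 793 without the 3 arrays. With the compared groups alone they were 101 for oligo 1 and 236 for the mean. For oligo 1 against Mock (549), oligo 2 against Mock (848) and between the siRNAs (732) they were 269, 379 and 388 with all probe sets, 2695, 1610 and 3164 with weights, and 145, 1314 and 211 without the 3 arrays. The block gave 838 and 1290 against Mock and 1094 between the siRNAs. The compared groups alone gave 276 for oligo 1 against Mock and 380 between the siRNAs. Between the controls (0; 1247 at an unadjusted p under 0.05) the block gave 3 and weights 2. Leaving out 1 array gave 155 to 863, 198 to 627 and 108 to 722 against sirEGFP, 244 to 674 and 307 to 1044 against Mock, 0 to 1 between the controls and 328 to 833 between the siRNAs; 2 arrays left in a group are assumed to vary like the others. The causes were not tested, beyond fewer arrays or more features in a fit.

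Of the values of single genes, 2942 kept direction and call, 156 lost a call, 69 gained one and 1 reversed. The F test was run without the settings that change the contrast or the features. Whether the replicate numbers pair the samples is not settled. The rule of r over 0.1 in every pair was met by oligo 2 with sirEGFP and with oligo 1. In each of these, 4 of 6 arrays correlated best with their own number. That count was 6 of 6 for Mock with sirEGFP and 5 of 6 for Mock with oligo 2, which did not meet the rule. It was 2 of 6 for Mock with oligo 1 and 3 of 6 for sirEGFP with oligo 1. Signal over background, which would say whether the low levels of Cdkn1c, Cdkn2a and Cdkn2b carry RNA, was not available in these values. Cdkn2a, whose locus is known to be lost in these cells, lay between 5.12 and 5.54. The oligo 2 values of Cdkn2b lay within that span, and Cdkn1c, at 4.74 to 5.17, lay at its low end or below.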
